A study of Mus musculus with 19 samples.

Results

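Baseline transcript levels of mouse hippocampal neurons were measured on 5 vehicle arrays, of 19 arrays in the series, chosen by their titles, which mark them as 6 h control cultures. The neurons were dissociated, kept for 21 days in culture in multiwell plates and exposed to vehicle for 6 h. The sources used here do not give the mouse strain, sex or age, or what the vehicle was. The other 14 arrays hold cultures given AP5 or NVP-AAM077, antagonists of NMDA receptors, or a further compound for the same time (AP5 at 100 μM, NVP-AAM077 at 100 nM, or Ro25, as the titles call it, at 1 μM), and they enter only a repeat of the calls. On every array the red dye Cy5 marked the neuron RNA and the green dye Cy3 a universal reference RNA of mouse, sold commercially. Such a reference is a pool of RNA from mouse cell lines of several tissues, so that most genes give some signal. The value used throughout is the log2 ratio of red over green, where 1 is a 2-fold higher level in neurons than in the reference and -1 a 2-fold lower one. Dyes were not swapped, so a dye effect and a difference between neurons and reference cannot be told apart.

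Cultured hippocampal neurons form synapses with each other, at which glutamate opens AMPA and NMDA receptors and GABA opens chloride channels. Mature neurons have left the cell cycle, while cell lines divide. Such cultures also hold glia: astrocytes take up glutamate and potassium, and cells of the oligodendrocyte lineage make myelin. In RNA from whole cultures, fewer cells of a type and less RNA per cell cannot be told apart.

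The 5 arrays gave median red signals of 135.5 to 170.3 and median green signals of 93.0 to 106.8. The red channel exceeded background clearly at 24486 to 28357 probes, depending on the array, and 19356 genes were tested. Log2 ratios correlated across genes with r from 0.983 to 0.994 between pairs of arrays, where genes are not independent replicates. The median SD of a gene over the arrays was 0.118, and the median half-width of the 95% interval of a mean was 0.122. The number of arrays limits this precision. Whether the 5 samples are separate cultures is not stated in the labels, so a p-value covers the variation among these arrays alone, and it may be technical. A gene is called here where its mean log2 ratio differed from 0 with a limma adjusted p under 0.05 and was at least 2-fold. By this rule 3744 genes were higher in neurons (19.3% of those tested) and 3842 were lower (19.8%), together 39.2%. At the same p without a minimum size, 44.3% were higher and 44.3% lower. At least 8-fold differences were found for 999 genes called higher (5.16%) and 514 called lower (2.66%), and at least 32-fold ones for 190 (0.982%) and 56 (0.289%). Measured on each array singly, 15.9% of genes were at least 2-fold higher on all 5 and 16.3% at least 2-fold lower. The test leaves out any spread of the reference RNA. Each gene is represented by its brightest kept probe. Of called genes with several kept probes, all probes were past 2-fold for 41.2% of those higher and 39.7% of those lower, and with the kept probe nearest to 0 there were 2762 genes called higher and 2992 lower. Genes described here as lost at another probe had a kept probe under 2-fold, whose log2 ratio is given.

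Among genes with an official symbol and both channels measured on all 5 arrays, the highest ratios belonged to genes of neuronal membranes, of synapses and of astrocytes. Gpm6a, a membrane glycoprotein of neurites, had log2 ratios of 8.18, 8.56, 8.65, 8.42 and 8.19 on vehicle 1 to 5, with a mean of 8.40 ± 0.22 (SD, n = 5; limma adjusted p = 3.51e-11), which is 337-fold. The probe maps to chromosome 8 from 56558884 to 56558943 (mm8, the build of the positions in the files). Slc1a2, the main glutamate transporter of astrocytes, had 8.11, 8.39, 8.26, 8.31 and 8.27, a mean of 8.27 ± 0.10 (SD, n = 5; adjusted p = 1.41e-11) or 308-fold, at a probe on chromosome 2 from 102591525 to 102591584. The arrays lay close together for both genes, and all were far above 0. The calsyntenin Clstn2, a synaptic adhesion protein, reached 7.82, 8.35, 8.43, 8.20 and 8.13. Sparcl1, a matrix protein that astrocytes secrete, ranged from 7.54 to 7.95. Next in order of the array nearest to 0 came Prdm8, a transcriptional regulator of neural development (mean 7.64), Chgb, the chromogranin of dense-core vesicles (7.43), Pgbd5 (7.24), the adhesion proteins Chl1 (7.36) and Cntn1 (7.13), the protocadherin Pcdh8 (7.04), Snap25, a SNARE of vesicle fusion (7.08), Syt1, the calcium sensor of release (6.81), Plppr4 (6.94) and Sobp (7.06). The probe of a gene mattered for some of these values. The 3 kept probes of Slc1a2 gave 0.98 to 8.27, so the 2-fold size was lost at another probe, as it was for Clstn2 (0.97) and Prdm8 (0.47). The 2 probes of Gpm6a gave 5.91 to 8.40 and the 3 of Snap25 4.57 to 7.22.

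The lowest ratios, among the same genes, belonged to genes of extracellular matrix, of immune cells and of non-neural cell surfaces. Spp1, the secreted phosphoprotein osteopontin, had log2 ratios of -9.20, -9.28, -9.16, -9.10 and -8.97, with a mean of -9.14 ± 0.12 (SD, n = 5; adjusted p = 1.41e-11), at a probe on chromosome 5 from 104681071 to 104681130. The level in the reference was 564-fold that in neurons, and the 5 arrays lay close together. After it came Anxa3 (-7.18) and Anxa1 (-6.50), annexins that bind membranes with calcium, and Ifi202b (-6.84), an interferon-inducible gene. The chains of fibrillar collagen Col1a1 (-6.14), Col3a1 (-5.96) and Col1a2 (-5.77) were all among the 15 lowest. Col1a1 stood at -6.21, -6.05, -6.12, -6.13 and -6.18 on the 5 arrays, with an SD of 0.06. The others were Tm4sf1 (-6.26), Ndrg1 (-6.03), the galectin Lgals3 (-5.95), Pou2af1, a coactivator of B cells (-5.78), Ahnak (-5.80), the nuclear RNA Neat1 (-5.72), complement C3 (-5.55) and the chemokine Cxcl12 (-5.69). Another kept probe was under 2-fold for Col1a2 (-0.38), C3 (-0.57) and Col3a1 (-0.95).

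**Figure D1:**
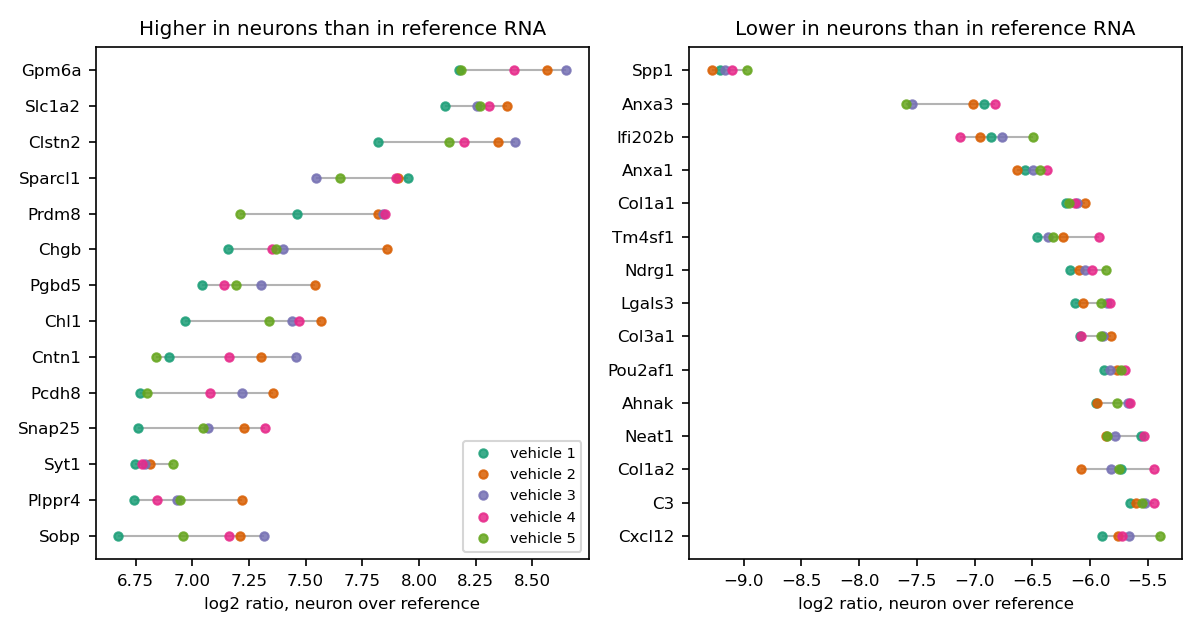
Log2 ratio of neuron over reference RNA on each of the 5 vehicle arrays (coloured points, grey line from lowest to highest) for 14 of the 15 highest and the 15 lowest genes among those measured in both channels on all arrays. Each panel has its own axis, and neither starts at 0. Spp1 lies at -9.28 to -8.97, below all other genes shown, and Gpm6a at 8.18 to 8.65.

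Some genes were measured in 1 channel only, and for these the fold is a lower bound. It sets the bright channel against the probe's own dim signal or the array's dimmest signal well above background, whichever is higher. Where the probe's own signal was the higher on all arrays, the bound equals the measured ratio, as for Ralyl and Slitrk1. In red only, with green not above background on any array, stood 406 genes, of which 167 were called. Ralyl, an RNA-binding protein, was at least 53.8-fold higher in neurons (4 arrays gave a value), and Spock3, a proteoglycan of brain, at least 50.6-fold. Synaptic adhesion again appeared here, with Slitrk1 at least 32.7-fold and Nlgn1, the neuroligin of excitatory synapses, at least 32.6-fold higher. The progenitor and glial factor Sox2 was at least 28.2-fold higher and the neuronal dynamin Dnm3 at least 24.9-fold. Frmd3 (at least 32.1-fold), A830018L16Rik (28.8-fold), Ankrd34b (19.8-fold) and Gpr22 (17.3-fold) complete the 10 with the largest bounds. In green only stood 1070 genes, of which 219 were called. The chemokine Ccl4 was at least 20.6-fold lower in neurons. The myeloid lectin Clec4d was at least 19.98-fold lower. Gata3, a T cell and trophoblast regulator, was at least 18.5-fold lower and Afp, the fetal liver albumin relative, at least 14.5-fold. Others were Evi2a (18.4-fold), Thbd (17.8-fold), Ifi44 (15.8-fold), Foxd1 (15.7-fold) and Cxcl5 (13.5-fold). No order is drawn between bounds. At another kept probe the 2-fold size was lost for A830018L16Rik (0.96), Ankrd34b (0.60) and Ifi44 (-0.97).

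Glutamate receptors and their auxiliary subunits were mostly higher in neurons: 21 of 29 tested members were called higher and 1 lower, with a median log2 ratio of 2.37 against 0.00468 over all genes tested. The AMPA receptor subunit Gria2 stood at 5.78, 5.99, 5.79, 6.04 and 5.79 on the 5 arrays (mean 5.88 ± 0.13, SD, n = 5) and Gria1 at 5.52, 6.02, 5.64, 5.46 and 5.61. Their arrays overlapped, and Gria3 (3.59) and Gria4 (2.74) were called with smaller ratios. The kainate receptor subunit Grik4 reached 5.88, and the auxiliary proteins Neto1 (4.31) and Cnih2 (3.50), which tune kainate and AMPA receptors, were called too. NMDA receptor subunits measured in both channels had smaller ratios. Grin2b (1.76), Grin3a (2.55) and Grin2c (1.20) were called higher, the obligatory subunit Grin1 (0.88) was positive but under 2-fold, and Grin2d was called lower with -1.37, -1.25, -1.61, -1.54 and -1.29. Grin2a was measured in red only, so that its fold is a lower bound (at least 1.58-fold higher), and it was not called. Among metabotropic receptors 4 of 6 were called higher, with Grm5 at 5.40, Grm3 at 3.62 and Grm7 at 1.68 among them. The 2 others that passed the filter, Grm8, in red only and at least 1.74-fold higher, and Grm4 (0.37), were not called. Green was above background on 1 array for Grm3 and Grm4 and on 3 for Grm7. At another kept probe the 2-fold size was lost for Grin2b (0.38), Gria3 (0.63) and Grm7 (0.74). Grm2 and Grm6 were dim in both channels.

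Receptors for GABA and glycine had the highest median of all 38 lists, 4.15, with 14 of 16 called higher and 0 lower. Gabra4 stood at 6.0, 6.18, 6.42, 6.63 and 5.98 and Gabrb2 at 5.55, 6.32, 6.21, 6.0 and 5.79. Green was above background on 1 array for Gabra4. These alpha and beta subunits form the chloride channel that GABA opens. Gabra5, a subunit abundant in hippocampus, had 3.1, and Gabrd, of receptors outside synapses, 1.75. The cerebellar subunit Gabra6 was dim in both channels, as were Gabrg3, Gabrq, Glra1 and Glra3. The GABA-B subunit Gabbr1 was called higher (2.76, but 0.31 at another kept probe), and Gabbr2 had 0.32.

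The machinery of transmitter release followed the same direction, with 41 of 46 tested members called higher, 1 lower and a median of 3.21. Snap25 gave 6.76, 7.23, 7.07, 7.32 and 7.05, and Syt1 gave 6.75, 6.82, 6.79, 6.78 and 6.91. Amph, of endocytosis, had a mean of 6.15 over the 4 arrays with a value, and the vesicle protein Sv2b one of 5.6. The active zone scaffolds Pclo (3.98), Bsn (3.13) and Rims1 (3.37) were called, but each had a kept probe under 2-fold (0.89, 0.24 and 0.52). Green was above background on 2 arrays for Pclo. Vesicular transporters marked both transmitters, with Slc32a1 for GABA at 5.54 and Slc17a7 and Slc17a6 for glutamate at 3.20 and 1.24. The exception was Syn1, a synapsin, called lower at -0.94, -0.92, -1.08, -1.05 and -1.0. Its value turns with the probe: the mean over its kept probes was 0.50, and in the authors' deposited table it was 1.99. Syn2 had 5.04.

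Behind the receptors, 27 of 32 scaffold and signalling proteins of the postsynaptic density were called higher and 0 lower (median 2.97). Ppp1r9a, neurabin, which ties actin to synapses, stood at 5.75, 6.11, 6.19, 6.05 and 6.06, Dlgap3, a scaffold partner of PSD proteins, at 5.58 to 5.91 and Anks1b at 4.99 to 5.53. The 3 kept probes of Ppp1r9a ranged from 0.34 to 6.03, so that its call was lost at another probe. Camk2b (4.55) and Camk2a (2.98), the kinase of synaptic plasticity, were called, as were Dlg2 (4.22) and Dlg4 (2.02). Of the large Shank scaffolds, Shank3 was called (2.96), and Shank1 (0.63) and Shank2 (0.28) were not. Synaptic adhesion proteins gave 36 of 43 called higher and 1 lower (median 3.16), the latter being Cntn3 at -1.12, -1.10, -0.98, -1.25 and -0.76. The neurexins Nrxn2 and Nrxn3 had 2.69 and 2.42, and the neuroligins Nlgn2 and Nlgn3 1.61 and 3.17, while Nlgn1, in red only, was at least 32.6-fold higher. Red was above background on 3 arrays for Cntn3. At another kept probe the 2-fold size was lost for Dlg2 (0.90) and Nrxn3 (0.60).

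Ion channels of excitability were higher in part. Sodium and calcium channels gave 16 of 25 called higher and 2 lower (median 1.83), and potassium and HCN channels 40 of 54 and 1 (median 2.63). Scn2b, an auxiliary sodium channel subunit, stood at 5.95, 6.29, 6.11, 6.26 and 5.89, and the pore subunits Scn8a at 5.42 to 5.90 and Scn2a at 4.67 to 5.15, although a kept probe of Scn2a gave 0.91. Cacna1s, the calcium channel of skeletal muscle, was called lower at -2.5, -2.21, -1.87, -2.25 and -2.40. Cacna2d2 was called lower (-1.74) at its brightest probe, but the mean over its probes was 0.42 and the authors' deposited table gave 2.55. Kcnd2, an A-type channel of dendrites, was at least 100.3-fold higher, a lower bound because green was not above background at its probe on any array, and Kcna1 had 6.18 and Kcnn2 5.79. The relative of Kcnn2 in blood cells and epithelia, Kcnn4, was called lower with -2.98, -2.80, -2.74, -2.79 and -2.65. Over all 72 genes whose symbols start with Kcn, 42 were called higher and 2 lower, the second being Kcnk6 (-1.12), which was picked after its value was seen.

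Cytoskeletal and axonal genes gave 34 of 37 called higher, 0 lower and a median of 3.88, next after GABA receptors and astrocyte markers. Map2, which marks dendrites, stood at 6.26, 6.62, 6.81, 6.75 and 6.45, the axonal motor Kif5c at 6.12 to 6.83 over 4 arrays and Dpysl4 at 5.15 to 5.74. RNA-binding proteins of neurons gave 18 of 23 and 0 (median 3.14), led by Celf3 (6.56, 7.17, 7.08, 6.91 and 6.93), Celf4 (5.54) and Khdrbs3 (5.14). Rbfox3, known to histologists as NeuN, had 3.46. Peptides and secretory granule proteins gave 21 of 27 and 0 (median 3.04). The granule proteins Chgb (7.16, 7.86, 7.40, 7.35 and 7.37) and Scg5 (6.16) and the peptide Cck (5.81) stood highest, Sst had 3.24 and Npy 2.55, and Vip was dim in both channels.

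**Figure D2:**
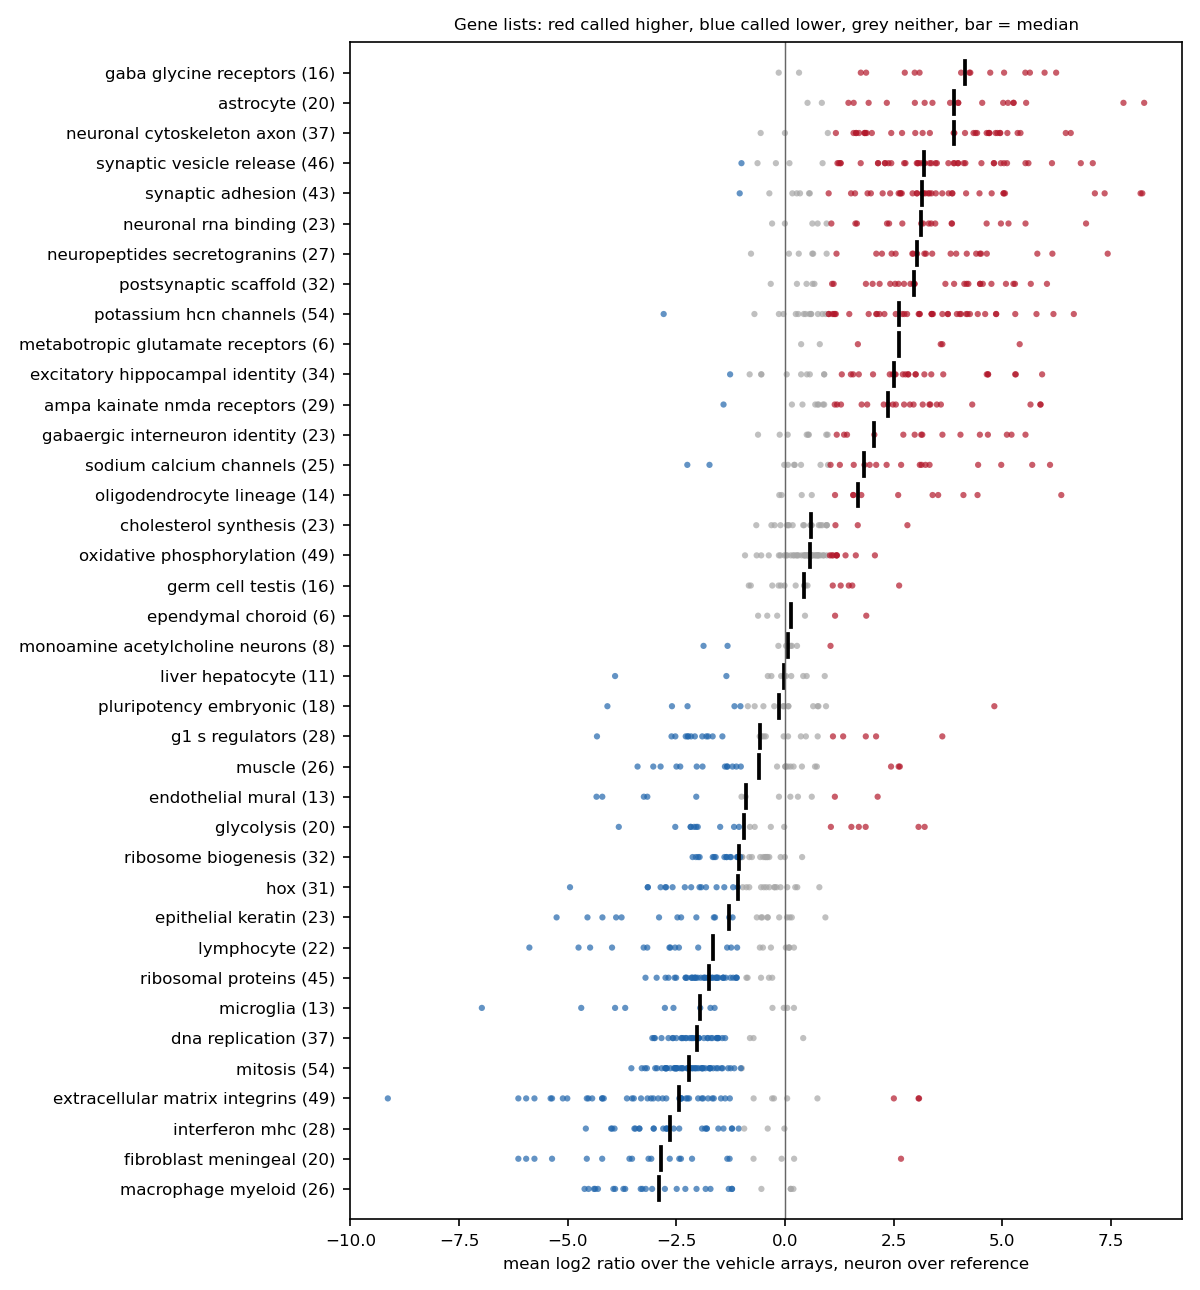
Mean log2 ratio over the 5 vehicle arrays for each tested gene of 38 lists (points, red called higher, blue called lower, grey neither), genes in 1 channel only included at their measured ratio, with the list median as a black bar and the number of genes tested in brackets. Receptor, synapse, cytoskeleton and astrocyte lists lie to the right of 0, with medians up to 4.15, and matrix, immune and cell division lists to the left, with medians down to -2.91.

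The labels name neurons. Marker lists were read beside this name, but they were chosen with earlier results of these data known, so they cannot test it. Lists of excitatory neurons, GABA neurons, astrocytes and the oligodendrocyte lineage had medians above the reference. Excitatory and hippocampal markers gave 24 of 34 called higher and 1 lower (median 2.5), with Neurod6, a factor of pyramidal cells, at 5.66, 6.0, 6.30, 6.14 and 5.48, Cpne4 at 5.31 and Calb2 at 5.30. Prox1 (1.70) and Calb1 (4.67), of dentate granule cells, and Spink8 (3.21) and Pou3f1 (3.37), of pyramidal cells, were also called. Fibcd1 was dim in both channels. Man1a was called lower (-1.26). Markers of GABA neurons gave 15 of 23 and 0 (median 2.06), with Gad1, which makes GABA, at 4.92, 5.30, 5.46, 5.32 and 5.06 and Slc32a1 at 5.54. Pvalb, in red only, was at least 1.45-fold higher and not called, and Nkx2-1 and Lhx8 were dim. Of 13 markers of monoamine and acetylcholine neurons 8 were tested, 1 called higher (Slc6a3, 1.05) and 2 lower (Ddc, -1.87, and Slc6a2, in green only and at least 2.44-fold lower). Their median was 0.08, and it turned to -0.158 with the deposited log10 ratio and to -0.873 among genes measured in both channels. Th, Tph2, Slc6a4, Slc18a3 and Slc5a7, which define dopamine, serotonin and acetylcholine neurons, were dim in both channels. Green was above background on 2 arrays for Prox1 and on 3 for Neurod6 and Slc6a3. At another kept probe the 2-fold size was lost for Prox1 (0.34), Man1a (-0.11) and Ddc (-0.32).

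Astrocyte markers were higher as strongly as synaptic genes, with 18 of 20 called and a median of 3.89. Besides Slc1a2 and Sparcl1 they include Mlc1 (5.38, 5.99, 5.45, 5.47 and 5.47), Slc1a3 (5.26), Apoe (5.26), Gfap, the filament of astrocytes (5.13), S100b (5.02) and Aqp4 (3.99). Gja1 (0.52) and Slc4a4 (0.85) were not called. Green was above background on 3 arrays for Gfap and Aqp4, and a kept probe of Slc1a3 gave 0.34. Oligodendrocyte lineage markers gave 10 of 14 called higher and 0 lower (median 1.67). Olig1, a factor of the whole lineage, stood at 6.4, 6.47, 6.18, 6.42 and 6.32, Olig2 at 4.43 and Gpr17, of cells about to mature, at 4.11. Among myelin genes Mbp had 1.76, with 0.61 at another kept probe, and Mobp -0.13, while Mog, Ermn, Opalin and Enpp6 were dim in both channels. The part of glia in the neuronal values was not tested.

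Other cell types were at or below the reference. Microglial markers gave 9 of 13 called lower and 0 higher (median -1.95). The protease Ctss stood at -7.01, -7.20, -6.94, -7.31 and -6.42, Trem2 at -4.69 and Fcer1g at -3.91. Red was above background on 3 arrays for Ctss and on 2 for C1qa. Of the 4 tested members called neither way, Cx3cr1 had 0.21, C1qa 0.05 and C1qb -0.03. P2ry12 and Siglech were dim in both channels. Fibroblast and meningeal markers gave 16 of 20 called lower (median -2.86), and the 1 called higher was Thy1 (2.5, 2.75, 2.58, 2.85 and 2.67), a surface protein that neurons carry as well. Endothelial and mural markers gave 5 of 13 lower (38.5%) and 2 higher (15.4%), against 19.8% and 19.3% of all genes tested (median -0.905). Among these, Tagln (-4.34), Pdgfrb (-4.20) and Acta2 (-3.25) were lower, Kdr, the receptor of vascular endothelial growth factor, was higher (1.99, 2.18, 2.17, 2.47 and 1.85), as was Rgs5 (at least 2.20-fold, in red only at its probe), and the endothelial genes Cldn5, Cdh5 and Tie1 were dim. Another kept probe of Acta2 gave -0.25 and one of Rgs5 0.53. Ependymal and choroid plexus markers gave 2 of 6 higher (Foxj1, 1.87, and Enkur, 1.15) and 0 lower, with a median of 0.14. These are few genes, and 33.3% called higher stands against 19.3% of all genes tested. Ttr, Otx2 and Clic6 were dim.

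**Figure D3:**
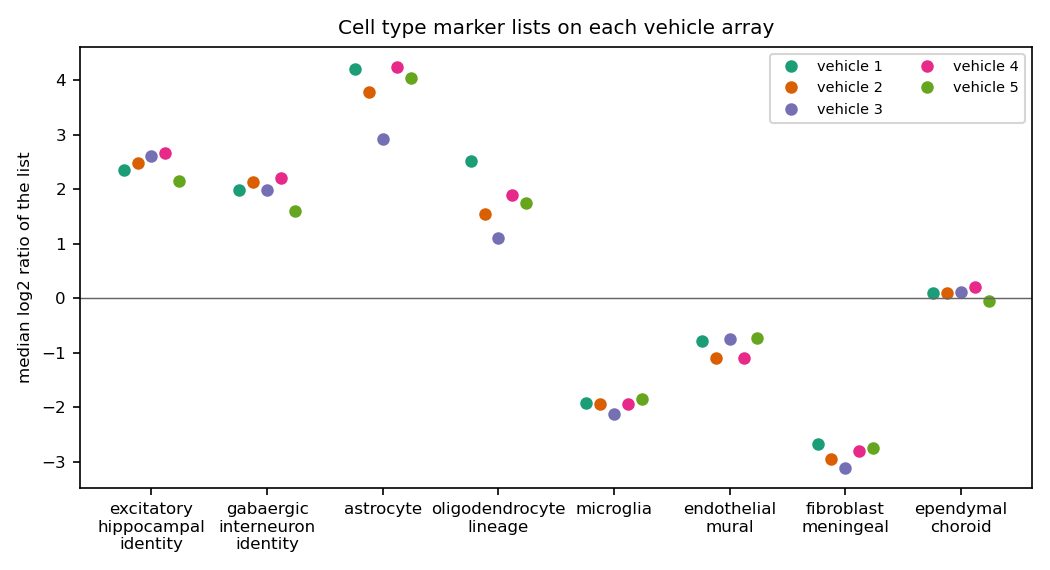
Median log2 ratio of 8 cell type marker lists on each vehicle array (coloured points). The astrocyte median was 2.92 on vehicle 3 and 3.78 to 4.24 on the other 4 arrays, the oligodendrocyte median 1.10 and 1.54 to 2.51, while the neuronal lists did not set vehicle 3 apart.

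Glial markers were lower on vehicle 3 than on the other arrays. Of 100 genes with the highest SD, vehicle 3 was the farthest array in 83, and it was the lowest in 89. For comparison, vehicle 3 was the lowest array for 21.6% of all genes with 5 values. Of 19 astrocyte markers with 5 values 16 were lowest on vehicle 3, as were 9 of 12 oligodendrocyte markers, against 5 of 33 excitatory markers and 5 of 42 release genes. Other lists were often lowest on this array too, with 13 of 28 interferon and MHC genes, 10 of 27 regulators of G1 and S phase and 15 of 48 matrix and integrin genes. Without vehicle 3 the list medians were 4.04 for astrocytes and 1.76 for the oligodendrocyte lineage. Aldoc, the aldolase of astrocytes, had 3.93, 3.06, 1.92, 3.61 and 3.56, and Bcas1, of maturing oligodendrocytes, 4.63, 3.42, 2.0, 4.11 and 3.47. The same array was low for Hopx (3.36, 2.88, 1.54, 3.33 and 3.44), Tafa1 (3.41, 3.19, 1.60, 4.02 and 3.89), Entpd2 (0.82, -0.26, -1.51, 0.34 and -0.07), complement C4b (1.08, -0.24, -1.31, 0.57 and 0.68), Fibin (0.93, 0.92, -0.74, 1.31 and 1.17) and Cav1 (-4.21, -5.92, -6.68, -4.64 and -4.59). Other genes varied in another order. Xist, the RNA of the inactive X chromosome, stood at -1.36, -3.29, -2.87, -1.31 and -0.93, low on vehicle 2 and 3. Its 4 kept probes had means from -1.95 to -0.21. Pou5f1 (2.31) and Htr1f (2.40) were high on vehicle 4 alone, with at most 0.48 and 0.73 on the others. Such spread was rare, since 104 of 12668 genes with an official name and both channels measured had an SD above 0.5, and the median was 0.114.

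Cell division genes were lower in neurons with few exceptions. Of 54 mitotic genes tested 53 were called lower and 0 higher (median -2.20), and of 37 DNA replication genes 34 and 0 (median -2.02). Mki67, the proliferation antigen, stood at -3.71, -3.61, -3.44, -3.58 and -3.32, the condensin subunits Smc4 at -3.36 to -3.15 and Ncapg at -3.39 to -3.11. Cdt1, which licenses replication origins, stood at -3.07, -2.94, -2.97, -3.20 and -3.07, thymidine kinase Tk1 at -3.01 and the primase Prim1 at -2.99. All 9 genes with Mcm symbols, most of them subunits of the replicative helicase, were called lower, and so were 16 of 20 centromere proteins. Kinesins split: 10 of 32 were called higher and 14 lower. Higher stood the axonal motors Kif5c (6.46), Kif5a (5.35), Kif1a (3.90), Kif1b (3.42) and Kif3c (2.45), and lower the mitotic motors Kif23 (-2.72), Kif20b (-2.51), Kif4 (-2.51), Kif20a (-2.25) and Kif2c (-2.18), these 10 picked after their values were seen. Regulators of G1 and S phase were mixed, with 13 of 28 lower and 5 higher (median -0.568). The kinase Cdk6 stood at -4.54, -4.45, -4.11, -4.28 and -4.26, Mycl at -2.61 and Rbl1 at -2.52. The 5 higher were Mycn (3.62), E2f3 (2.10), Ccnd2 (1.86) and the inhibitors Cdkn1b (1.34) and Cdkn1c (1.10). A kept probe of E2f3 nearer to 0 gave -0.628, and the 2-fold size was lost at another kept probe for Cdkn1b (-0.20), Mycn (0.97), Cdk6 (-0.77), Kif1b (-0.0088) and Kif3c (0.64).

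Promoters were read in RefSeq sequence of GRCm38.p6, 250 bases before to 50 after each start, and searched on both strands. The letters TTTGAA (CHR, the cell cycle homology region) stood in 33 of 47 promoters of mitotic genes (70.2%), against 17.9% of all 32851 promoters and 12.5% of those of genes tested. CCAAT stood in 74.5% of mitotic and 54.3% of replication gene promoters, against 37.4% of all. GCGGGAA, the core of E2F sites, stood in 15 of 35 replication promoters (42.9%), against 4.6% of all and 7.34% of those of genes tested, and in 1 of the 47 mitotic ones. The shares were much smaller over all genes called lower: TTTGAA in 15.8% of promoters, GCGGGAA in 9.2% and CCAAT in 37.9%. Over all genes called higher they were 10.2%, 6.03% and 36.6%. The 31 mitotic genes with TTTGAA had a median log2 ratio of -2.18 and the 14 without it -2.40. For replication genes the medians were -2.31 with GCGGGAA (14 genes) and -1.88 without (16 genes), and neither difference was tested. A match is a description and not a site. The 150 bases before the start are shown for the 3 lowest mitotic genes that hold both CCAAT and TTTGAA there, capitals marking these letters or their reverse complement. They are Mki67 at chr7:135716380-135716529 (minus strand), Ube2c, a ubiquitin carrier of mitotic exit, at chr2:164769779-164769928 (plus strand, log2 ratio -2.76) and Top2a, a topoisomerase, at chr11:99024190-99024339 (minus strand, -2.75, with -0.39 at another kept probe).
Mki67: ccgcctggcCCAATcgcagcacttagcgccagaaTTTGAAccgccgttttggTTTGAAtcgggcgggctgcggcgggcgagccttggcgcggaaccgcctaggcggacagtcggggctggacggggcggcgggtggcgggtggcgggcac
Ube2c: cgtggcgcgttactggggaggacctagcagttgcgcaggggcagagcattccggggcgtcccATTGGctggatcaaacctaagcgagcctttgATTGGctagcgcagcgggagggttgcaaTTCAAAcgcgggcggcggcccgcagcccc
Top2a: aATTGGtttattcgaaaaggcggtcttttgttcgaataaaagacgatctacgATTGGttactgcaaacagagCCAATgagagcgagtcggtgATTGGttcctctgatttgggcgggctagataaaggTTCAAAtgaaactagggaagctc
For replication, the 2 lowest genes that hold GCGGGAA in this window are shown with it in capitals. They are Prim1 at chr10:128015065-128015214 (plus strand) and the helicase subunit Mcm7 at chr5:138171267-138171416 (minus strand, log2 ratio -2.59).
Prim1: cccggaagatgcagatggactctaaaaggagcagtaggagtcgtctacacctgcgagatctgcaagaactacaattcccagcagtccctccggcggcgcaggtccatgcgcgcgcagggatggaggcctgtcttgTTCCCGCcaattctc
Mcm7: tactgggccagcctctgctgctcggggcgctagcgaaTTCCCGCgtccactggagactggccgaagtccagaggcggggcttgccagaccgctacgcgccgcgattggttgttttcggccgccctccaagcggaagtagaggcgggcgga

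**Figure D4:**
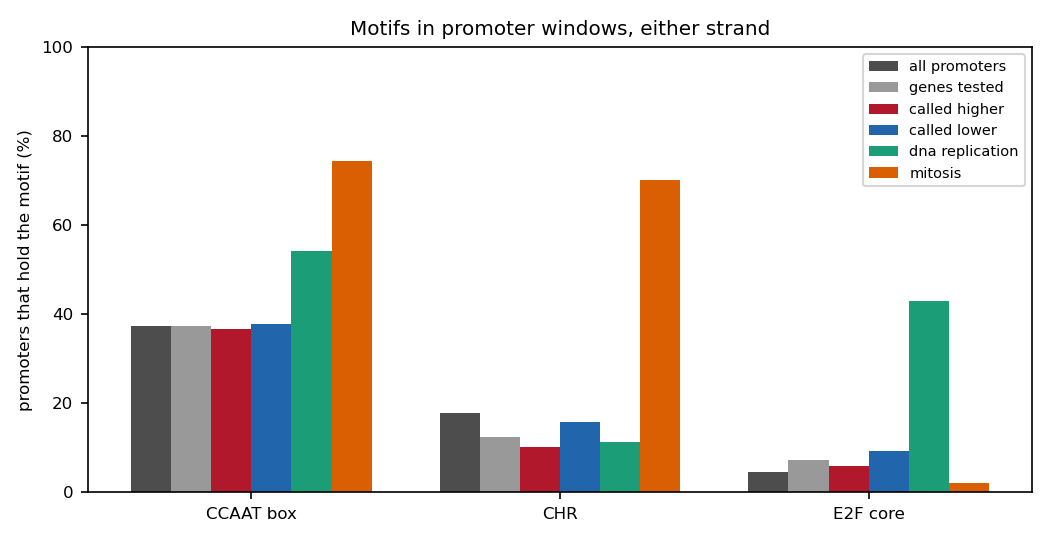
Percent of promoter windows of 300 bases that hold the CCAAT box, the CHR or the E2F core on either strand, for all promoters, genes tested, genes called higher or lower, and the lists of replication and mitotic genes. Bars start at 0. CHR reaches 70.2% in mitotic genes and 11.4% in replication genes, and the E2F core 2.13% and 42.9%.

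Among genes higher in neurons, a motif of the repressor Rest was searched, which keeps neuronal genes silent in other tissues. The core of its binding element, RE1, stood in 12 of all 32851 promoter windows (0.0365%), in 9 of 15821 windows of genes tested (0.0569%), in 5 of 3615 windows of genes called higher (0.138%) and in 0 of 3075 of genes called lower. The 5 genes were Hrh3, a histamine receptor (4.53), Fbll1 (3.85), Ttc9b (3.64), Osbp2 (2.96) and Sptbn4, a spectrin of axons (1.84), where Osbp2 had 0.27 at another kept probe. The tested genes Fam163b (0.49), Ogdhl (0.26) and Lca5 (-0.54) held it too and were not called. Osbp2 and Sptbn4 hold the letters within the 150 bases before the start, at chr11:3774669-3774818 and chr7:27396199-27396348, both on the minus strand, and are shown with the core in capitals.
Osbp2: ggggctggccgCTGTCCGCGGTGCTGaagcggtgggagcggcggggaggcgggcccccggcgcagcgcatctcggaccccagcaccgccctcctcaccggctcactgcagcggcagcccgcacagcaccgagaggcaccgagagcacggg
Sptbn4: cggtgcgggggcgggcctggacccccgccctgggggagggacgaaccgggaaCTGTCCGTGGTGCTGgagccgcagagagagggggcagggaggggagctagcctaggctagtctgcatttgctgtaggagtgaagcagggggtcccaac
The cAMP response element TGACGTCA stood in 3.21% of windows of genes called higher, 2.31% of those called lower and 2.72% of those tested. TATAAA stood in 8.13%, 9.72% and 8.96%, and in 16.4% of windows of genes called at least 8-fold lower. The same letters stood in 9.07% of windows of genes called at least 8-fold higher and in 13.6% of all promoter windows.

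Ribosomal protein genes were lower as a class, with 40 of 45 listed members called lower and 0 higher (median -1.74). Rpl22 stood at -3.15, -3.29, -3.27, -3.18 and -3.15, Rpl10 at -2.95 and Rps15 at -2.75, while another kept probe of Rpl22 gave -0.39. Over all 72 genes with Rpl or Rps symbols 60 were lower and 1 higher, Rps4l (4.26), picked after its value was seen. These families have near-identical copies in the genome, which a probe may not tell apart. Ribosome biogenesis factors gave 18 of 32 lower and 0 higher (median -1.05), with Utp20 at -2.13, Mybbp1a at -2.05 and Npm1 at -2.0. Mitochondrial ribosomal proteins did not share this, with 8 of 75 lower and 5 higher, and neither did proteasome subunits, with 2 of 38 lower and 1 higher. The 2 proteasome subunits called lower were the immunoproteasome members Psmb8 (-3.98) and Psmb9 (-3.35), and the 1 higher was Psmd6 (1.12).

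Energy metabolism genes did not share a direction. Respiratory chain and ATP synthase genes gave 9 of 49 called higher and 0 lower (median 0.575), a share of higher calls near that of all genes, led by Atp5g3 (2.17, 2.36, 2.04, 1.89 and 1.89), Ndufa4 (1.63) and Ndufa8 (1.39). Glycolysis genes gave 10 of 20 lower and 6 higher, with a median of -0.932 that turned to 0.0529 without normalization within arrays. Isoforms typical of brain stood higher, such as Aldoc (3.22), Ldhb (3.07) and the neuronal glucose transporter Slc2a3 (1.86), which had -0.0326 in the authors' deposited table. Lower were the lactate exporter Slc16a3 (-3.88, -3.76, -3.85, -3.93 and -3.70), Hk2 (-2.52) and Slc2a1 (-2.17). The vacuolar proton pump, which fills synaptic vesicles, had 11 of 19 subunits higher and 1 lower, Atp6v0e (-1.25), picked after its value was seen. Cholesterol synthesis gave 3 of 23 higher (Hmgcs1, 2.82, Dhcr7, 1.68, and Tm7sf2, 1.16) and 0 lower, with a median of 0.588. Its share called higher, 13%, is below the 19.3% of all genes tested. For Hmgcs1, a kept probe nearer to 0 gave -0.804, and for Dhcr7 one gave 0.56.

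Pairs of related genes were compared within each array, 1 member labelled neuronal and the other widespread. The pairs were chosen with earlier results of these data known, and how widely each member is expressed was not tested. In 31 of 32 pairs the ratio of the neuronal member was above that of the widespread one on all arrays with a value. The median log2 difference was 4.03. Both ratios are to the reference, so the difference does not say which member has more RNA in neurons. In 13 pairs the members were called in opposite directions. Snap25 minus Snap23, of vesicle fusion, gave 8.09 ± 0.42 (SD, n = 5), Ina minus Vim, of intermediate filaments, 7.44 ± 0.45 (SD, n = 5), and Ndrg4 minus Ndrg1 11.7 ± 0.10 (SD, n = 5). Snap23 stood at -0.65, -0.99, -1.44, -0.95 and -0.99 and Vim at -2.91, -3.09, -3.45, -2.90 and -2.93, apart from their partners on every array. A kept probe of Snap23 gave -0.73.

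Further pairs called in opposite directions were Eef1a2 (3.84) and Eef1a1 (-1.48), of translation elongation, Elavl4 (4.97) and Elavl1 (-1.11), Gng3 (3.03) and Gng5 (-1.86), Actl6b (2.59) and Actl6a (-1.31), of the BAF chromatin remodeller, Slc2a3 and Slc2a1, Dnm1 (1.74) and Dnm2 (-1.51), Eno2 (1.06) and Eno1 (-2.17), and Ptbp2 (1.62) and Ptbp1 (-2.73). The splicing repressor Ptbp2 turned with the probe, with a mean of -0.216 over its probes and -2.03 in the authors' deposited table. Elavl1 turned to 0.117 as a mean over its probes, and a kept probe of Dnm2 was under 2-fold (-0.65). In 8 pairs the widespread member was itself called higher, for example Atp2b1 (2.15) beside Atp2b2 (4.45) and Camk2g (1.09) beside Camk2a (2.98). Atp2b1 turned to -0.875 with its kept probe nearest to 0. With the kept probe nearest to 0, the difference Ppp3ca minus Ppp3cc turned to -0.606. The pair whose widespread member had the higher ratio was Dpysl5 and Dpysl2, with a difference of -1.59 ± 0.19 (SD, n = 5), which turned to 0.953 with the deposited log10 ratio. Kept probes nearer to 0 gave 0.40 for Dpysl5, where green was above background on 1 array, and 0.077 for Dpysl2.

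Other pairs had a neuronal member called higher and a widespread one between the thresholds, as for Stmn2 (4.95) and Stmn1 (-0.08, 0.06, 0.17, -0.09 and -0.07), Vamp2 (3.33) and Vamp3 (-0.70), Rab3a (4.52) and Rab27a (-0.31), Atp1b1 (5.30) and Atp1b3 (-0.55), Gabarapl1 (4.21) and Gabarap (-0.91), Sh3gl2 (3.22) and Sh3gl1 (-0.84), Syp (2.77) and Sypl (-0.63), Gnao1 (2.37) and Gnai2 (-0.75), Kif5c and Kif5b (0.72), and Tubb3 (2.70) and Tubb5 (0.23). Without normalization within arrays, the widespread members Sypl, Sh3gl1, Stmn1, Atp1b3, Rab27a, Gnai2 and Gabarap turned positive.

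**Figure D5:**
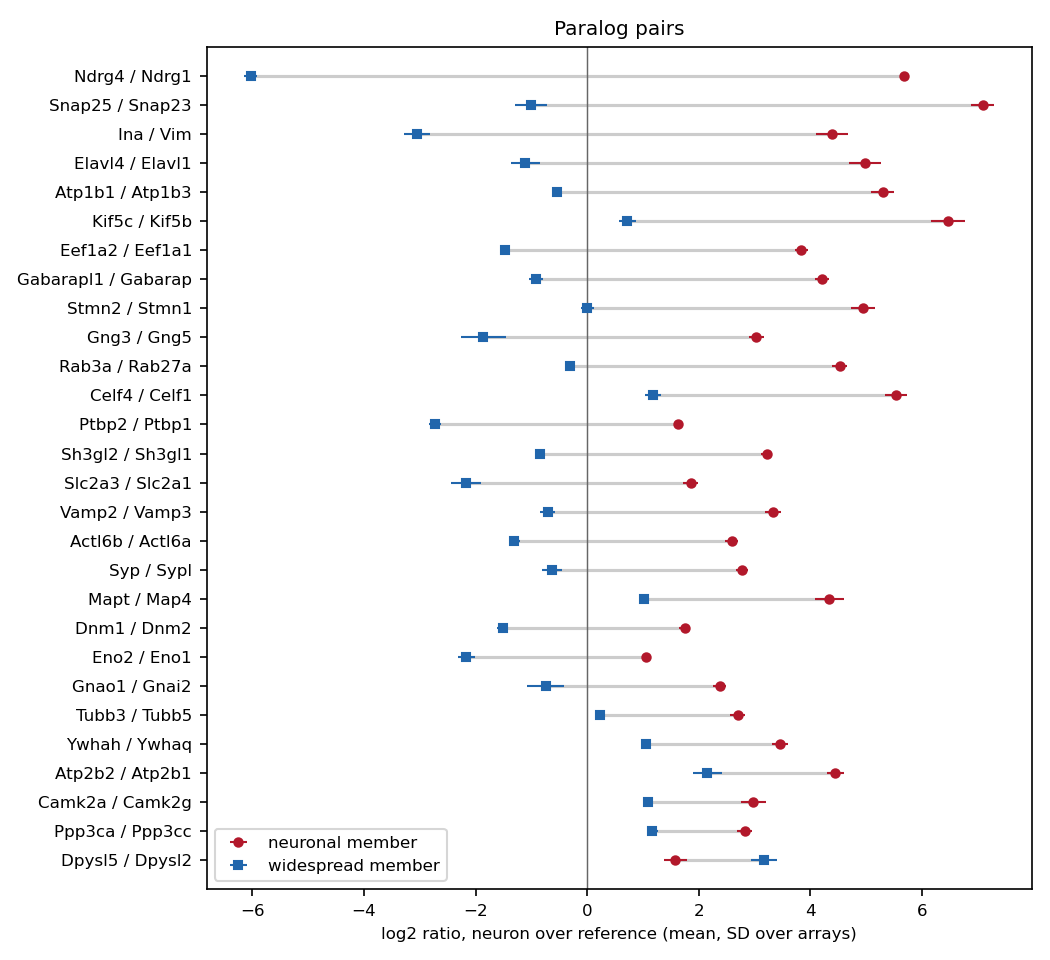
Mean log2 ratio of the neuronal (red circles) and widespread (blue squares) member of 28 paralog pairs over the vehicle arrays, with bars for the SD over 4 or 5 arrays. Pairs are ordered by difference, from 11.7 for Ndrg4 and Ndrg1 to -1.59 for Dpysl5 and Dpysl2.

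Most lists of other tissues had medians below 0. Matrix and integrin genes gave 41 of 49 lower and 3 higher (median -2.43). The 3 higher were Timp2 (3.09) and the integrins Itgb8 (3.25, 3.08, 2.90, 3.12 and 3.01) and Itga8 (at least 5.68-fold, in red only at its probe). The kept probe of Itgb8 nearest to 0 gave -0.0194, and another kept probe of Itga8 gave a log2 ratio of 1.67. Over all collagens 20 of 38 were lower and 5 higher, Col26a1 (3.69), Col22a1 (2.91), Col19a1 (at least 4.79-fold, in red only), Col11a1 (1.48) and Col23a1 (1.19), picked after their values were seen. At another kept probe Col22a1 had 0.35, Col19a1 0.55 and Col23a1 0.40. Interferon and MHC genes gave 25 of 28 lower and 0 higher (median -2.64), with Bst2 at -4.58, Usp18 at -4.0 and Psmb8 at -3.98. Macrophage and myeloid genes, several of them shared with microglia, gave 22 of 26 lower (median -2.91), led by Ncf4 (-4.61), Cd14 (-4.52) and Lyz2 (-4.39). Lymphocyte genes gave 14 of 22 lower (median -1.66), with Ptprc, Cd79b (-4.75) and Ms4a1 (-4.48) among them. Ptprc was at least 56.2-fold lower, since red was not above background at its probe on any array, and another kept probe gave -0.34. No tested member of either list was called higher (0 of 26 and 0 of 22).

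Epithelial genes gave 13 of 23 lower and 0 higher (median -1.28), with the simple keratins Krt18 (-5.26), Krt19 (-4.55) and Krt8 (-4.20). Hox genes, which pattern the trunk and hindbrain and are not used in the forebrain, gave 16 of 31 lower and 0 higher (median -1.09). They were led by Hoxc9 (-5.07, -4.98, -4.98, -5.07 and -4.63), Hoxc6 (-3.16) and Hoxb7 (-3.16). For 12 of the 31 red was not above background on any array, so that their folds are lower bounds. Muscle genes gave 13 of 26 lower and 3 higher, with a median of -0.60 that turned to 0.000148 without normalization within arrays. Tnnt1 (-3.39), Acta1 (-3.03) and Actc1 (-2.86) were lower. The 3 higher were Actn2 (2.64), an actinin also found at dendritic spines, and the myosins Myh8 (2.62) and Myh7 (2.44). Liver genes gave 2 of 11 lower and 0 higher, and the 18.2% called lower is near the 19.8% of all genes tested. These 2, in green only, were Afp (at least 14.5-fold) and Foxa2 (at least 2.54-fold). Among pluripotency genes 5 of 18 were lower, led by Klf4 (-4.09), Klf5 (-2.60) and Klf2 (-2.24), and 1 was higher, Sox2 (at least 28.2-fold, in red only). That is 27.8% called lower and 5.56% called higher, against 19.8% and 19.3% of all genes tested. The medians of the liver and pluripotency lists, -0.02 and -0.14, turned to 0.454 and 0.277 without normalization within arrays. Germ cell genes gave 5 of 16 higher (31.2%, against 19.3% of all genes tested) and 0 lower (median 0.44). Among them Hspa2 stood at 2.49, 2.66, 2.74, 2.64 and 2.61 and Odf2 at 1.55. Dazl was at least 2.70-fold higher, in red only at its probe and with 0.63 at another. Odf2 had -0.479 in the authors' deposited table. Olfactory receptors, with 269 tested, had 5 called higher and 2 lower.

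The 14 arrays of cultures treated with the 3 compounds repeated these ratios, on other samples against the same reference. Of the genes called higher 84.4% were at least 2-fold higher on all 14, and of those called lower 85.9% were at least 2-fold lower. In both directions 99.9% kept the sign on all 14. These cultures had been given a drug, and the dye orientation was the same.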

How the data were processed

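RNA of 5 vehicle samples was measured on two-colour Agilent mouse arrays (41174 probes in 43379 gene spots, and 1639 control spots). Per the file headers, the deposited intensity of each spot and the deposited log10 ratio came from Feature Extraction 9.5.3.1, with background subtraction and dye normalization of the ratio, while the submitters' processing notes name version 11.0. The authors' deposited table holds log2 values for 20674 probes. Compared with the ratios of the same arrays from the spots, its columns had r of 0.9986 to 0.9997, slopes of 0.9934 to 1.007 and medians of 0.0345 to 0.0436, so it holds log2 of red over green, and its centring stays unknown.

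Spots that the software flagged for uneven or outlying pixels were dropped: 1642 on vehicle 5 and 117 to 266 on the others. After this 694 genes had values on fewer than 5 arrays. Background was corrected by normexp with an offset of 50, ratios were normalized by loess within each array, and a probe needed signal clearly over background, in either channel, on 4 or more arrays. With 29247 probes kept, each of 19356 genes is represented by its brightest kept probe; 6904 genes had more than 1. Of all probes, 23374 were named by accession, 6733 by symbol and 2919 by synonym in a table from RefSeq (GRCm38.p6), and 8148 kept the name in the files. Genes with an official name were 81.8% of those tested.

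The log2 ratio was tested against 0 with limma 3.58.1 in R 4.3.3 (with statmod 1.5.0), two-sided, with Benjamini-Hochberg adjustment over all genes. Tested on simulated data for the same 19356 genes, this recovered 99 of 100 genes changed by 1.5 and 100 of 100 changed by 3 on the log2 scale, and called 1 unchanged gene. The simulation drew independent noise at each gene's SD. It checks the test step alone, and not normalization, dye bias, probe choice or dim signals. Bounds for genes or shown probes measured in 1 channel used both channels after loess and scaling of the mean brightness between arrays, and are open to dye bias. Promoter windows and their letters come from RefSeq.

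Genes were named by rule: the 15 called farthest from 0 each way by the array nearest to 0, 10 with the largest bounds each way, up to 3 called members farthest from 0 in each direction per list, both genes of each paralog pair, and the 10 most variable. Members of the lists outside this rule are named as examples of a function and were chosen after their values were seen. Some genes that the rule names are not reported here, though counts over lists and pairs hold them. The genes, lists and pairs were chosen with earlier results of these data known.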

Additional observations from a re-analysis of the deposited data

Results flagged for a closer look

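In 16 of 265 results over the 5 vehicle arrays (6.04%), 1 array lay far from the other 4 for its group's range, and chance flags about 1 in 20. Vehicle 3 was the far array in 5 of them. Fibin had -0.745 there against 0.915 to 1.31 on the others, the glucose transporter Slc2a1 -2.63 against -2.11 to -2.0, Sypl -0.938 against -0.616 to -0.499, and Hmgcs1, of cholesterol synthesis, 3.37 against 2.60 to 2.72. The median of the cholesterol synthesis list was likewise 0.862 against 0.472 to 0.559. Vehicle 4 was the far array for Pou5f1 (2.31 against 0.0401 to 0.477), Htr1f (2.40 against 0.216 to 0.727) and Itga8 (2.91 against 2.33 to 2.49).

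Vehicle 5 had more spots left out (1642) than any other array. It was far for Ifi44 (-3.39 against -4.32 to -4.09), Klf5 (-2.41 against -2.69 to -2.60), Hoxc9 (-4.63 against -5.07 to -4.98), Ppp3cc (0.998 against 1.18 to 1.25) and the median of the monoamine and acetylcholine list (-0.0205 against 0.0353 to 0.0517). Vehicle 1 was far for Dnm3 (4.29 against 4.68 to 4.79) and Ptbp2 (1.5 against 1.62 to 1.67), and vehicle 2 for Mlc1 (5.99 against 5.38 to 5.47). Ifi44, Dnm3 and Itga8 had 1 channel not above background at their probe, so their ratios are given to compare arrays and not as sizes.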

How the results depend on the processing

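Leaving out each array in turn gave 3701 to 3794 genes called higher and 3810 to 3921 lower, and vehicle 2, the only array on another slide, gave 3718 and 3810 when left out. With slide as a random block (correlation -0.103) they were 3737 and 3833. No paired analysis was possible because all values come from 1 group, whose ratios are tested against 0. The deposited log10 ratio gave 5868 genes lower and 4717 higher. Normalization set the balance of calls: of all calls 49.4% were higher with loess, 63.5% with median centring (5075 higher, 2918 lower) and 79.7% without normalization (7266 higher, 1852 lower), where the median of all genes was 0.189 and 0.647. Without normalization 7 lists had a median of at most -1, against 12. Of genes with several kept probes, all probes had the sign of the call for 81.9% of those higher and 84.3% of those lower, while all were past 2-fold for 41.2% and 39.7%. With the kept probe nearest to 0 there were 2762 calls higher and 2992 lower.

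These values changed sign. Deposited log10 ratio: the monoamine list to -0.158, Dpysl5 minus Dpysl2 to 0.953 and Stmn1 to 0.453. An offset of 16 put Stmn1 at 0.152. Median centring put Stmn1 at 0.729, Atp1b3 at 0.0944 and Entpd2 at 0.142. Without normalization the lists of glycolysis (0.0529), liver (0.454), muscle (0.000148) and pluripotency (0.277) turned, as did Syn1 (0.158), Sypl (0.402), Sh3gl1 (0.171), Stmn1 (1.19), Atp1b3 (0.554), Rab27a (0.168), Gnai2 (0.353), Gabarap (0.19) and Entpd2 (0.602). Without a filter on dim probes the liver list had 0.0178 and the pluripotency list 0.032, and with both channels required the monoamine list had -0.873 and the liver list 0.0256. The mean over probes turned Syn1 (0.504), Cacna2d2 (0.418), Tubb5 (-0.127), Elavl1 (0.117) and Ptbp2 (-0.216).

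The probe nearest to 0 turned the differences Ppp3ca minus Ppp3cc (-0.606) and Dpysl5 minus Dpysl2 (0.327), and E2f3 (-0.628), Hmgcs1 (-0.804), Odf2 (-0.456), Itgb8 (-0.0194), Sypl (0.21), Map4 (-0.0934), Atp2b1 (-0.875), Ptbp2 (-0.265), Ppp3ca (-1.17), Ppp3cc (-0.565) and Ywhaq (-0.195). The authors' deposited table turned the liver (0.0206) and pluripotency (0.0247) lists and Syn1 (1.99), Cacna2d2 (2.55), Slc2a3 (-0.0326), Odf2 (-0.479), Sypl (0.204), Stmn1 (0.0647), Ptbp2 (-2.03) and Ywhaq (-0.197). It holds 20674 probes, so another probe can stand for a gene there. In the main processing another kept probe gave 2.01 for Syn1, 2.57 for Cacna2d2, -0.477 for Odf2 and 0.21 for Sypl. Stmn1 had -0.43 at another kept probe, and Slc2a3 had 1 kept probe. Leaving out single arrays moved Stmn1 from -0.0438 (without vehicle 3) to 0.0212, C4b from -0.0762 (without vehicle 1) to 0.524 (without vehicle 3), Entpd2 from -0.375 to 0.207 (without vehicle 3) and the liver list from -0.0541 to 0.0114 (without vehicle 3). The cause was not tested.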
